A study of Mus musculus with 8 samples.

Results

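The miR-17-92 cluster is a row of 6 microRNA hairpins that are cut from 1 host transcript, Mir17hg. The members described here are 7 mature miRNAs of that transcript, found on the array by name: mmu-miR-17-5p, mmu-miR-17-3p, mmu-miR-18a-5p, mmu-miR-19a-3p, mmu-miR-20a-5p, mmu-miR-19b-3p and mmu-miR-92a-3p (mmu for mouse, left off from here on), out of 1881 miRNAs on the array. They were taken by name, as mature miRNAs of this cluster, but the choice was made with earlier results of these data known. A further 5 arms of the same hairpins, also on the array, are described with the other arms. All 7 were above background on all 8 arrays and all 7 were tested. The samples were 8 mouse kidneys, each hybridised to a one-colour Agilent array of short probes complementary to mature miRNAs. In the LPS group (4 samples), a model of septic acute kidney injury, the mice had received an intraperitoneal injection of 10 µg lipopolysaccharide per g body weight. Lipopolysaccharide, or LPS, is an outer membrane component of Gram-negative bacteria. Mice of the sham group (4 samples) had received saline instead. Kidneys were taken at 24 h, RNA was extracted from 30 mg of tissue, and 100 ng was labelled with Cy3. Strain, age and sex are not given in the labels. The labels number the samples (sham replicates 5 to 8, and LPS replicates 6, 10, 11 and 12) without saying whether they are separate animals, and every p-value here measures the spread among these particular samples only.

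The host transcript of the cluster is a classic target of the transcription factors MYC and E2F, and its miRNAs are best known for supporting proliferation and survival of progenitor, lymphoid and tumour cells. A miRNA finds its targets mainly through its seed, bases 2 to 8, so members with 1 seed form a family that can repress the same mRNAs. In kidney, the cluster is known for keeping nephron progenitors proliferating and for promoting cyst growth in polycystic kidney disease. Whole kidney RNA mixes many cell types, and more cells of a type cannot be told apart here from more of a miRNA per cell.

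The members fall into 4 seed families, with the 3′ arm of the first hairpin, miR-17-3p, on a seed that no other member has. Outside the members, miR-106a-3p and miR-20b-3p carry it too. The mature sequences are shown because seed and position are what group the results. They come from RefSeq (mouse GRCm38.p6), where 16 of 16 miRNAs looked for, the 7 members among them, had an entry. Each is written 5′ to 3′ with the seed in capitals and in the order of the cluster.
miR-17-5p: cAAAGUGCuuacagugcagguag
miR-17-3p: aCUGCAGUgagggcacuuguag
miR-18a-5p: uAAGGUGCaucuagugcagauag
miR-19a-3p: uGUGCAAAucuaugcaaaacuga
miR-20a-5p: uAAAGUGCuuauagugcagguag
miR-19b-3p: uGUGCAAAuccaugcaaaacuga
miR-92a-3p: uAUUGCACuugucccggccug

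miR-17-5p and miR-20a-5p share the seed AAAGUGC and are 2 edits apart over their whole length. miR-19a-3p and miR-19b-3p share GUGCAAA and differ by 1 edit, and in RefSeq no other mature mouse miRNA of 1679 carries that seed. miR-18a-5p has AAGGUGC and miR-92a-3p has AUUGCAC. All 6 hairpins lie on the plus strand of chromosome 14 within 836 bases, from Mir17 at chr14:115043671-115043754 to Mir92-1 at chr14:115044427-115044506. The gaps between neighbouring hairpins ran from 35 to 96 bases. miR-19b-3p and miR-92a-3p each have a second locus on chromosome X, in the paralogous miR-106a-363 cluster, with the same mature sequence, so their signals cannot be assigned to 1 cluster.

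The first hairpin is the one place in the cluster where both arms were measured among the members. Its sequence is printed with both mature arms in capitals, the 5p arm first.
Mir17: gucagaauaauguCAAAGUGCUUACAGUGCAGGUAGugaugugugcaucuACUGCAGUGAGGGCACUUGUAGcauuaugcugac

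The number of miRNAs above background ranged from 336 to 375, and both of these extremes were sham arrays. All 8 arrays were on 1 slide, with sham in row 1 and LPS in row 2, and row therefore cannot be told apart from group. Every slide column (1 to 4) paired a sham array with an LPS array. The test with limma covered the 338 miRNAs that were above background on all arrays of the sham group, the LPS group or both, and 50 were higher and 86 lower with LPS, 40.2% in either direction, with 36.8% of the calls higher. That share was 53.8% with no scaling between arrays, 50.9% with the percentile taken over all probes, 49.6% with cyclic loess and 18.5% with scaling to the labelling spike-ins, which themselves read 0.22 log2 units higher on the LPS arrays (2-sided exact permutation p = 0.0286, the smallest that 4 against 4 allows). The miRNAs of kidney tubule cells were abundant, with a summed log2 signal of 5.90 to 6.02 on sham and 5.75 to 5.94 on LPS arrays. Of 5 tubule miRNAs, 3 were called lower with LPS in the same limma fit, miR-192-5p (-0.28), miR-194-5p (-0.33) and miR-204-5p (-0.19). The share called lower over all 338 tested miRNAs was 25.4%. The other 2, miR-30a-5p (-0.11) and miR-10a-5p (0.10), were not called. The part of the tubule miRNAs in the rise of the cluster was not tested. The liver miRNA miR-122-5p was at the floor throughout.

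The signals named for the members were all higher after LPS. All 7 members were called higher with limma at an adjusted p below 0.05, against a background of 14.8% of the 338 tested miRNAs called higher, and 0 were called lower, where the background was 25.4%. The lowest LPS array lay above the highest sham array for 7 of 7 members, against 12.1% of all tested miRNAs. The median difference over the members was 0.52 log2 units, and over all tested miRNAs it was -0.08. The rises were moderate, from 33.6% to 50.1% for 6 members, and miR-18a-5p stood at 2.05-fold. Values below are log2 signals after division by the array's 75th percentile over probes above background, so 0 is the level of a fairly bright probe. They are given for sham replicates 5, 6, 7 and 8 and then for LPS replicates 6, 10, 11 and 12. Levels of different miRNAs are not compared, because each probe binds with its own strength.

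**Figure D1:**
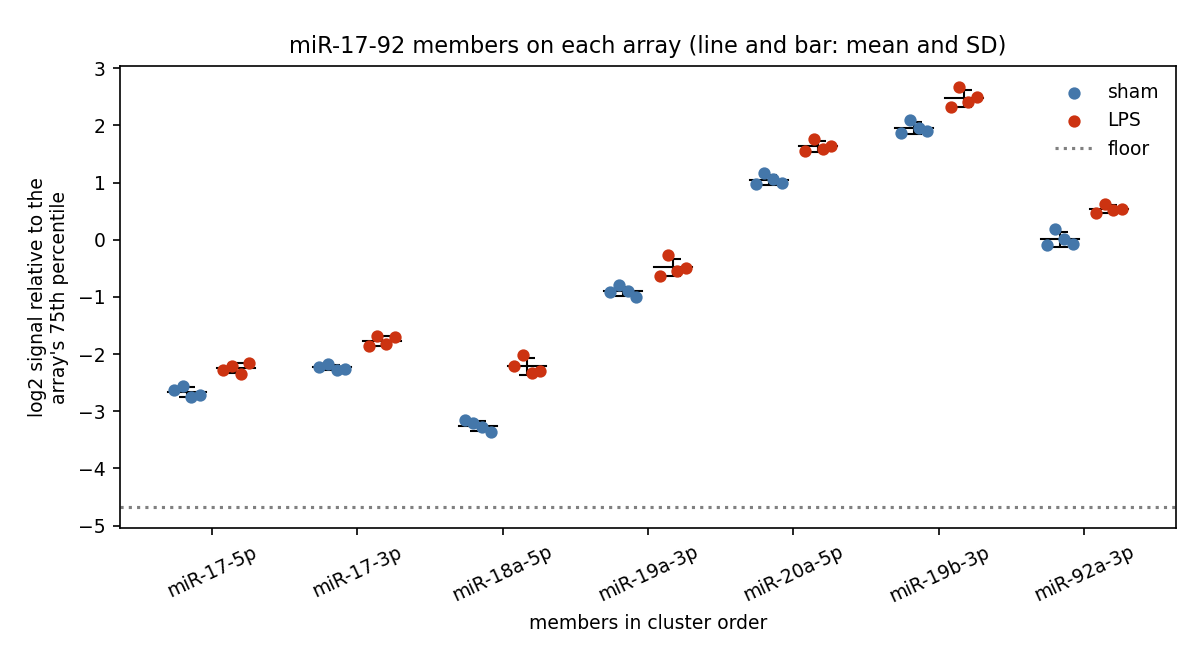
Log2 signal of each member on each array relative to the array's 75th percentile (vertical axis), with the members in cluster order along the horizontal axis, sham in blue and LPS in red. Black lines and bars are the mean and SD of 4 arrays and the dotted line is the floor at -4.68. In each member the 4 red points lie above the 4 blue points, with the widest separation in miR-18a-5p (means of -3.25 and -2.21).

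The miR-17 family, which carries the seed AAAGUGC, is known for repressing cell cycle inhibitors such as p21 and the polycystins. Its member miR-20a-5p read 0.98, 1.17, 1.06 and 0.99 on the sham arrays and 1.55, 1.76, 1.58 and 1.65 on the LPS arrays. The groups did not overlap, and the LPS mean of 1.64 ± 0.09 (SD, n = 4) against 1.05 ± 0.09 gave a rise of 0.59 ± 0.07 (SE) log2 units, or 50.1% (limma, adjusted p = 4.70e-04). This was the second largest change in the cluster. The other family member, miR-17-5p, read -2.63, -2.56, -2.75 and -2.72 on the sham arrays and -2.28, -2.20, -2.35 and -2.15 on the LPS arrays. These groups were also fully apart, by 0.42 ± 0.07 log2 units or 33.6% (limma, adjusted p = 1.87e-03).

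miR-18a-5p, which differs from the miR-17 family by a base in its seed and is known for repressing Ctgf, changed most. It read -3.16, -3.21, -3.28 and -3.36 on the sham arrays and -2.20, -2.02, -2.33 and -2.30 on the LPS arrays. The distance between the groups was several times the spread within either, with means of -3.25 ± 0.09 and -2.21 ± 0.14 (SD, n = 4). The difference was 1.04 ± 0.08 log2 units, with a 95% interval of 0.85 to 1.23 (limma, adjusted p = 6.11e-05). miR-18a-5p was also a dim member: its probes gave only 18.2 to 52.1 and 30.4 to 80.6 signal units. With normexp background correction, which adds an offset of 50 signal units, its difference was 0.34.

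The miR-19 pair is the part of the cluster most tied to lymphoma. miR-19b-3p read 1.86, 2.10, 1.96 and 1.90 on the sham arrays and 2.32, 2.67, 2.42 and 2.49 on the LPS arrays. It rose by 0.52 ± 0.09 log2 units or 43.2%, with no overlap (limma, adjusted p = 2.62e-03). Its near copy miR-19a-3p read -0.92, -0.79, -0.90 and -0.99 on the sham arrays and -0.63, -0.27, -0.54 and -0.49 on the LPS arrays. Its lowest LPS value, -0.63, lay 0.16 above its highest sham value, the narrowest gap in the cluster. The rise was 0.42 ± 0.09 log2 units or 33.6% (limma, adjusted p = 6.34e-03), and it was the only member to lose its call under an alternative, with quantile normalization (0.28, adjusted p = 0.0656).

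miR-92a-3p, the last miRNA of the cluster, is known in endothelium for repressing integrin α5 and restraining vessel growth. Its signal was -0.10, 0.20, 0.02 and -0.08 on the sham arrays and 0.47, 0.63, 0.52 and 0.53 on the LPS arrays. The LPS arrays were closer together (SD 0.07) than the sham arrays (SD 0.13), and every one was above every sham array. The rise was 0.53 ± 0.08 log2 units or 44.3% (limma, adjusted p = 1.40e-03).

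Both arms of the first hairpin rose. miR-17-3p, usually the less abundant product of Mir17, read -2.22, -2.18, -2.28 and -2.26 on the sham arrays and -1.86, -1.69, -1.83 and -1.70 on the LPS arrays. It rose by 0.47 ± 0.06 log2 units or 38.1%, again without overlap (limma, adjusted p = 7.11e-04). The change of miR-17-5p minus that of miR-17-3p was -0.05 log2 units, with a 95% interval of -0.13 to 0.03 (2-sided exact permutation test, adjusted p = 0.32).

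Of 16 other arms of these hairpins, their paralogs and the further same-seed hairpins, 15 were above background on 0 of 8 arrays. The exception, miR-20a-3p, is the partner of miR-20a-5p, and the hairpin is printed with both arms in capitals, the 5p arm first.
Mir20a: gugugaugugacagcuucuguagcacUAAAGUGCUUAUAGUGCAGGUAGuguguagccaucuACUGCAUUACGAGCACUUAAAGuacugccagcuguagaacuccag

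miR-20a-3p was above background on 0 sham and 3 LPS arrays, which left it outside the test. Its summed signal was -4.60, -4.43, -4.59 and -4.64 on the sham arrays and -3.67, -3.30, -3.84 and -3.58 on the LPS arrays. The groups did not overlap, but the sham values lie beside the floor of -4.68 and its 2 brighter probes never exceeded 30.6 signal units. Without the detection filter the difference was 0.97 ± 0.11 log2 units (limma, adjusted p = 7.58e-04 over 492 miRNAs), and with normexp background correction it was 0.05.

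Every member was read by 2 probes, 14 in all and 12 to 21 bases long, and each probe is complementary to the 3′ end of its miRNA. For all 14 probes the lowest LPS array exceeded the highest sham array, but no share over all probes of the array is given here. The 2 probes of a member cover the same 3′ end and are not independent readings. The 2 probes of miR-20a-5p gave differences of 0.58 and 0.60. The brighter probe of miR-18a-5p was above background on all 8 arrays and gave 1.03. Its dimmer probe was above background on 7 arrays, with 26.7% of spots on sham replicate 6, and was at the floor on sham replicate 8, so its own difference has only a bound there. The probes of miR-17-3p were less alike, at 0.40 and 0.63, and the dimmer one of miR-17-5p was at the floor on the sham arrays, so that its 0.31 understates the change.

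The sequence read by the miR-17-5p probes sets a limit on what that value means. The longer of its probes is ctacctgcactgt, and its site is in capitals in these mature miRNAs.
miR-17-5p: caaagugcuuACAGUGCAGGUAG
miR-106a-5p: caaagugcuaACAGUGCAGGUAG

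The 2 miRNAs hold this site without a mismatch, and miR-106a-5p, a paralog on chromosome X, has no probe under its own name on the array. The signal named miR-17-5p therefore cannot be assigned to 1 of the 2. Both miR-17-5p probes also match miR-20a-5p and miR-20b-5p with 1 mismatch, and both miR-20a-5p probes match miR-17-5p and miR-20b-5p with 1 mismatch. The probes of miR-19a-3p and miR-19b-3p each match the other miRNA of that pair with 1 mismatch, while the probes of miR-17-3p, miR-18a-5p and miR-92a-3p had no other mature mouse miRNA within 1 mismatch. How far a single mismatch lowers binding on this array was not tested.

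The members deviated together from array to array. Sham replicate 6 had the highest sham value of 6 members and LPS replicate 10 the highest LPS value of 6 members, and both lay in slide column 2. LPS replicate 6 was lowest for 5 members. Over the 21 pairs of members, deviations from the group mean correlated with r between 0.36 and 0.98 (median 0.69, 8 arrays, which share RNA sample, labelling and slide). The tightest pair was miR-20a-5p with miR-19b-3p, at 0.98.

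**Figure D2:**
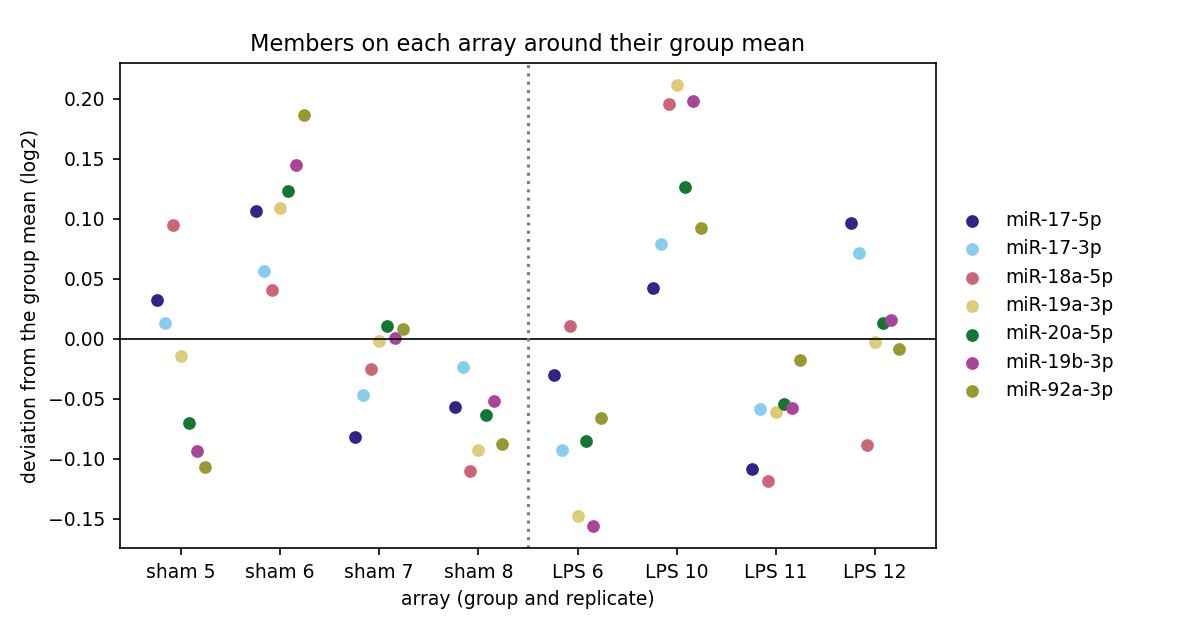
Deviation of each member from its group mean in log2 units (vertical axis) on each array (horizontal axis, with the dotted line between sham and LPS), 1 coloured point per member. All points of sham 6 and LPS 10 are above 0 and all points of sham 8 and LPS 11 below 0, within a band of -0.16 to 0.21.

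The differences were also read within slide columns. Because the groups did not overlap, the LPS array had to exceed the sham array in each of the 4 columns for 7 of 7 members. Only the sizes are therefore informative. They were 0.95 to 1.19 for miR-18a-5p, 0.52 to 0.66 for miR-20a-5p and 0.28 to 0.52 for miR-19a-3p. Leaving out any 1 array kept all 7 calls, with differences of 0.97 to 1.08 for miR-18a-5p and of 0.35 to 0.47 for miR-19a-3p, the member nearest the threshold.

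Differences between 2 members within each array drop out anything that scales an array as a whole. Of the 21 pairs, 0 passed the threshold after Benjamini-Hochberg adjustment in a 2-sided exact permutation test. The smallest unadjusted p that 4 against 4 arrays can give, 0.0286, was reached by 8 pairs (adjusted p = 0.075). With 8 of 21 pairs at that p, none can pass however large its gap, so the 0 does not show equal changes. In 6 of these 8 pairs miR-18a-5p was the member that had risen more, by 0.45 (95% interval 0.27 to 0.63) against miR-20a-5p and by up to 0.62 (0.43 to 0.81) against miR-17-5p. In the other 2, miR-19a-3p had risen less than miR-20a-5p, by 0.17, and less than miR-19b-3p, by 0.10. The seed partners miR-17-5p and miR-20a-5p differed by -0.17 (-0.31 to -0.03, adjusted p = 0.12). These gaps depend on how dim signals are treated: with normexp background correction 15 of 21 pairs passed, and the change of miR-18a-5p became smaller than that of miR-20a-5p (-0.19, adjusted p = 0.04).

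**Figure D3:**
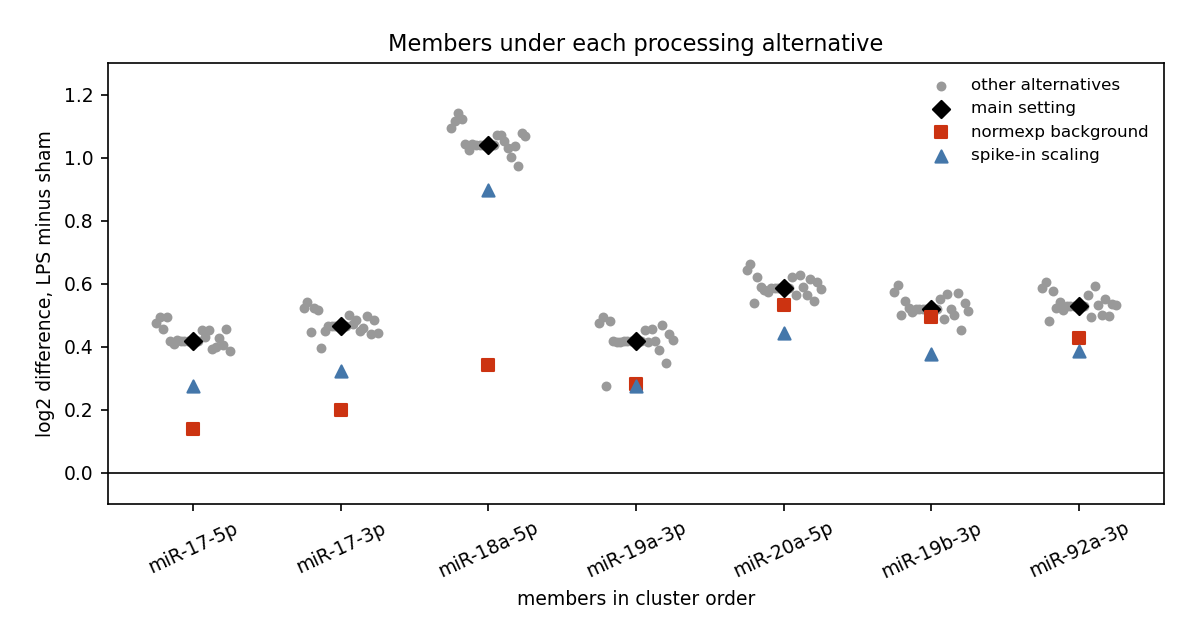
Log2 difference, LPS minus sham (vertical axis), of each member (horizontal axis, in cluster order) under the settings as reported (black diamonds) and under each of 24 alternatives, with normexp background correction as red squares, scaling to labelling spike-ins as blue triangles and the rest in grey. All points lie above 0, and the red squares fall furthest for the dim members, from 1.04 to 0.34 in miR-18a-5p.

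The size of the rise depended on the background treatment. Among 24 alternatives and 7 members, 167 of 168 calls were kept. The normexp values were 0.14 for miR-17-5p, 0.20 for miR-17-3p and 0.34 for miR-18a-5p, all less by more than 1.5 times. For miR-19a-3p the value went from 0.42 to 0.28. The brighter miR-20a-5p, miR-19b-3p and miR-92a-3p were at 0.53, 0.49 and 0.43. Scaling to the labelling spike-ins moved the median of all tested miRNAs from -0.08 to -0.23 and took miR-17-5p and miR-19a-3p to 0.28. Such scaling shifts all miRNAs of an array by 1 constant, so the distance of a member from that median is fixed by construction (0.50 for both).

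The paralogs with the same seeds put the cluster in context, and 3 groups of them were compared: the miR-106a-363 cluster on chromosome X, the miR-106b-25 cluster on chromosome 5, and miR-32 and miR-92b from loci of their own. Their mature sequences are shown for the comparison, with the seed in capitals, for those that were measured.
miR-20b-5p: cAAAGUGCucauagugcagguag
miR-106b-5p: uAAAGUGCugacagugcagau
miR-93-5p: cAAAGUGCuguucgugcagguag
miR-25-3p: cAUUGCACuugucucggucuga
miR-32-5p: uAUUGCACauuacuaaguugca

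Of 9 such miRNAs looked for, 8 had probes under their own names and 5 were tested. Of these 5, 1 was called higher and 0 lower, against 14.8% and 25.4% of all 338 tested miRNAs. The median difference of the 5 was near 0 (-0.001). In RefSeq miR-6383 also carries AAAGUGC and miR-367-3p also carries AUUGCAC, and they were not among those looked for. miR-18b-5p, miR-363-3p and miR-92b-3p were above background on 0 of 8 arrays. miR-20b-5p, from the chromosome X cluster, read 0.37, 0.60, 0.52 and 0.46 on the sham arrays and 0.90, 1.08, 0.85 and 0.95 on the LPS arrays. Its groups did not overlap and its rise was 0.46 ± 0.07 log2 units or 37.4% (limma, adjusted p = 1.87e-03).

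None of the 3 tested miRNAs of the miR-106b-25 cluster, which lies in an intron of Mcm7, passed the test. miR-106b-5p differed by 0.02 log2 units, miR-93-5p by -0.12 and miR-25-3p by -0.001, with limma adjusted p of 0.788, 0.132 and 0.98. Their 95% intervals, -0.11 to 0.15, -0.24 to 0.01 and -0.12 to 0.12, end below the lowest difference among the members, 0.42. miR-106b-5p showed how closely the groups overlapped, with 0.61, 0.65, 0.54 and 0.55 on the sham arrays and 0.61, 0.71, 0.57 and 0.55 on the LPS arrays. miR-32-5p stood at -0.14 (limma, adjusted p = 0.184). miR-93-5p and miR-32-5p were called lower under scaling to the labelling spike-ins, at -0.26 and -0.28, miR-93-5p also under quantile normalization (-0.14) and miR-32-5p also without LPS replicate 10 (-0.21, adjusted p = 0.0124).

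**Figure D4:**
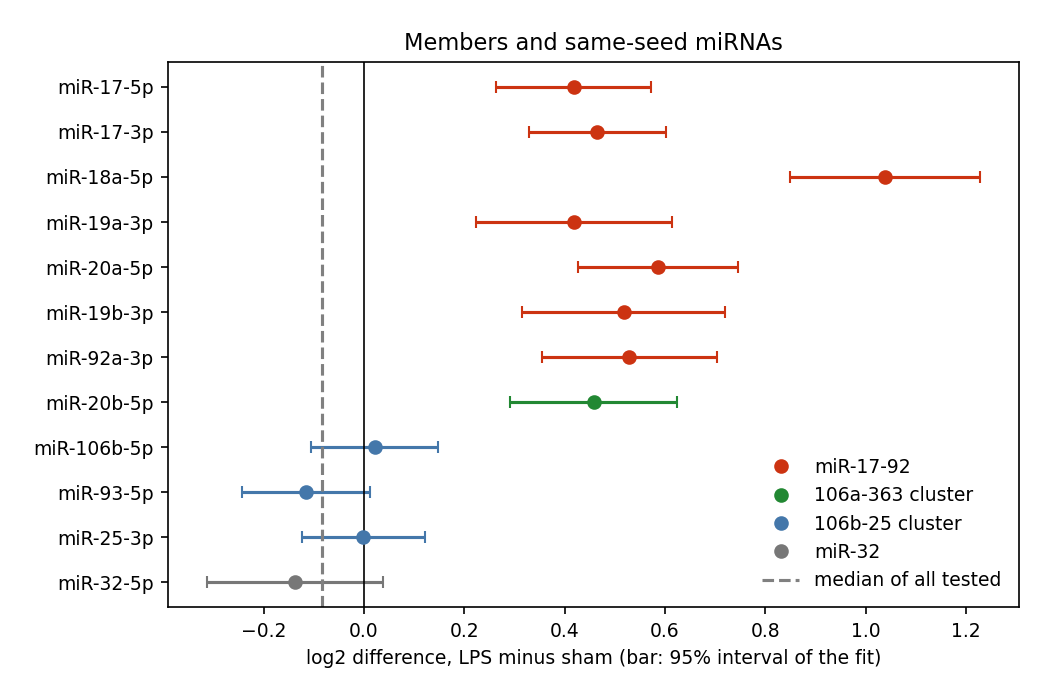
Log2 difference, LPS minus sham (horizontal axis), of the 7 members (red), miR-20b-5p of the miR-106a-363 cluster (green), the miR-106b-25 cluster (blue) and miR-32-5p (grey), with 95% intervals of the limma fit as bars. The dashed line is the median of all tested miRNAs, -0.08. The red and green points lie at 0.42 or above, and the intervals of the other 4 miRNAs reach 0.15 at most.

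A direct test of the difference was made for 8 pairs of a member and a tested paralog with the same seed, again within each array. In 7 of 8 pairs the member had risen more (2-sided exact permutation p = 0.0286, adjusted p = 0.0327). miR-20a-5p rose by 0.70 more than miR-93-5p (95% interval 0.54 to 0.87) and by 0.56 more than miR-106b-5p (0.44 to 0.69). miR-17-5p gained 0.53 on miR-93-5p (0.41 to 0.66) and 0.40 on miR-106b-5p (0.26 to 0.53). In the other seed family, miR-92a-3p gained 0.53 on miR-25-3p (0.36 to 0.70) and 0.67 on miR-32-5p (0.44 to 0.89). In these 6 comparisons the signal named for the member rose more than that of its paralog. They reuse the same few members and paralogs and are not independent. The signals of miR-17-5p and miR-92a-3p cannot be assigned to the miR-17-92 cluster alone, as described above.

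Against miR-20b-5p the gaps were small. miR-20a-5p rose by 0.13 more (95% interval 0.07 to 0.19), a result that missed the threshold when only the brightest probe was used (0.10, adjusted p = 0.0653), and the probes of this pair are 1 mismatch apart. miR-17-5p differed from miR-20b-5p by -0.04, with an interval of -0.20 to 0.12 (2-sided exact permutation test, adjusted p = 0.543). With normexp background correction the difference was -0.25 (same test, adjusted p = 0.0286). The offset added there lowers the differences of dim probes most. The probes of miR-17-5p read 16.5 to 89.8 signal units, against 267.8 to 668.0 for miR-20b-5p. The value of -0.25 therefore cannot be read as unequal changes of the 2 miRNAs.

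**Figure D5:**
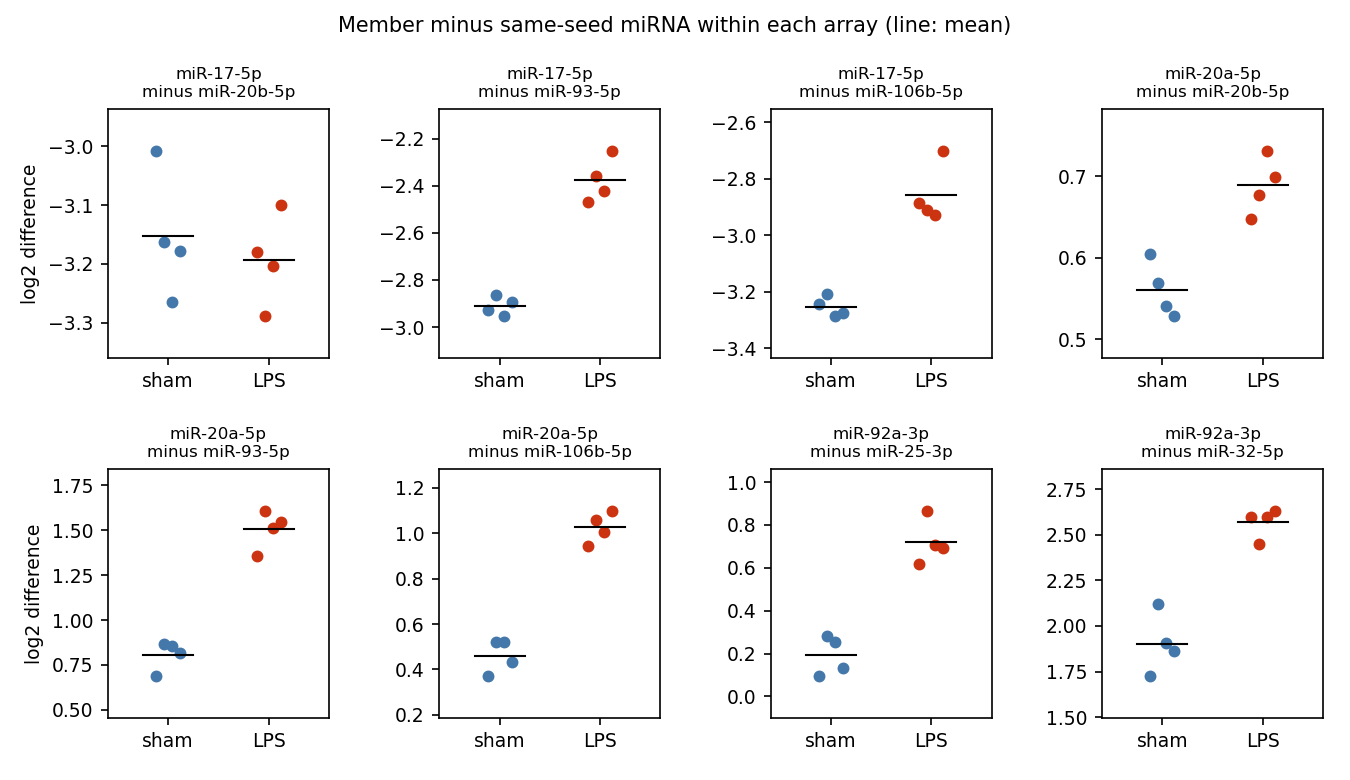
Log2 signal of a member minus that of a paralog with the same seed on each array (vertical axis, 1 panel per pair), for sham (blue) and LPS (red), with the mean as a line. The groups overlap for miR-17-5p minus miR-20b-5p and are apart in the other 7 panels, for example at means of 0.81 and 1.51 for miR-20a-5p minus miR-93-5p.

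The embryonic miRNAs that hold the core of the miR-17 seed, from the miR-290 and miR-302 clusters, were above background on 0 of 8 arrays for 6 of 6. Outside these lists, the 5 tested miRNAs whose pattern was most like the mean of the members over the 8 arrays were miR-7a-5p, miR-21a-5p, miR-155-5p, miR-21a-3p and miR-29b-1-5p, with Pearson r of 0.97 to 0.98. These correlations are descriptions over 8 arrays and are carried by the difference between the groups. After the group means were removed r was 0.62, 0.75, 0.62, 0.23 and 0.55, in the same order. Among them miR-7a-5p changed by an amount close to that of miR-18a-5p, 1.02 ± 0.08 log2 units (limma, adjusted p = 6.11e-05), and miR-21a-5p by 2.22 ± 0.08 (limma, adjusted p = 1.95e-07).

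Some markers of blood cells moved in the same comparison. Of 6 leukocyte miRNAs, all tested, miR-223-3p of granulocytes rose by 0.86 and miR-155-5p, induced in activated leukocytes, by 1.68. The other 4 were not called: miR-142a-3p (0.26), miR-142a-5p (0.13), miR-342-3p (-0.01) and miR-150-5p (-0.22). The summed log2 signal of the 6 was 1.18 to 1.64 on the sham arrays and 1.79 to 1.89 on the LPS arrays. None of the 6 was at the floor, and their part in the rise of the cluster was not tested. Of 4 red cell miRNAs, 2 were tested and both were called higher. miR-451a rose by 2.43 ± 0.71 (SE) log2 units and miR-144-3p by 2.46 ± 0.68 (limma, adjusted p = 0.0285 and 0.0235). The groups overlapped in both, and miR-144-3p was above background on only 2 sham arrays. miR-144-5p was above background on 0 of 8 arrays and miR-486a-5p on 2 LPS arrays. The summed signal of the 4 ran from -0.77 to 1.67 on the sham and from 1.06 to 3.80 on the LPS arrays. The arrays with the least miR-451a, the main red cell miRNA, in each group were sham replicate 6 (-1.09) and LPS replicate 10 (0.90). Each of these arrays held the highest value in its group for 6 of the 7 members, though not for the same 6. The part of red cells in the rise of the cluster was not tested. Leaving out either array, which kept all 7 calls, does not test it. Endothelial miRNAs (summed signal 4.13 to 4.23 on sham and 4.10 to 4.27 on LPS arrays, 0 of 2 called) and stromal miRNAs (2.55 to 2.74 and 2.67 to 2.83, 0 higher and 1 lower of 3) showed overlapping ranges of the summed signal. The stromal miRNAs did not move alike. miR-145a-5p was lower by 0.44 without overlap (limma, adjusted p = 2.78e-03), while miR-143-3p (0.05) and miR-199a-3p (0.16) were not called.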

How the data were processed

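The intensities used were deposited by the authors as scanner output, 1 file per array. Per the file headers, spatially detrended background had been subtracted and no scaling between arrays applied. The software was Agilent Feature Extraction 12.0.3.1, per the submitters' processing notes. The authors also deposited a table with 1 linear ratio per miRNA and array, centred per miRNA, whose array scaling has no stated origin; it served as an alternative, in log2. The software's flags, deposited by the authors as values of 0 or 1 (type other), marked outlier spots, which were left out, and spots well above background.

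The mean of the remaining spots gave 1 value per probe. Signals were scaled by the array's 75th percentile of 551 probes that exceeded background (in more than 50% of spots) on every array, then summed over the probes of a miRNA, floored at -4.68 and put on the log2 scale. No non-control spot was saturated. LPS and sham were compared by lmFit and eBayes of limma 3.58.1 (R 4.3.3), 2-sided and without covariates, adjusted by Benjamini-Hochberg over 338 miRNAs at 0.05. Pairs were tested by 2-sided exact permutation over arrays, adjusted over the 21 or the 8 pairs. Both procedures were tested on simulated data. The named miRNAs are the 7 members, their paralogs and same-seed miRNAs, the other arms, the embryonic miRNAs with the seed's core, the 5 most alike, and the marker lists of 6 cell types. Members and lists were chosen with earlier results of these data known. The number of arrays limits the precision. Alternatives covered scaling, background correction, probe summary, filter, floor, variance model, slide column as a block, the deposited table and leaving out each array.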

Additional observations from a re-analysis of the deposited data

Results flagged for a closer look

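miR-32-5p, which shares its seed with miR-92a-3p, read -1.82 on LPS replicate 10 against -2.12, -2.08 and -2.10 on the other LPS arrays, so that 1 array stood apart from the rest of its group. Among the 24 groups of 4 arrays examined this was the only such value, and chance gives about 1.20. Without that array miR-32-5p was called lower (-0.21, limma, adjusted p = 0.0124).

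miR-20a-3p, the partner arm of miR-20a-5p, was above background on 3 LPS arrays and 0 sham arrays and stayed outside the test, which needed 4 arrays of a group. Of 1543 untested miRNAs, 3 had this pattern of at least 3 LPS and 0 sham arrays.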

How the results depend on the processing

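Of 168 member calls under 24 alternatives, 167 were kept; miR-19a-3p lost its call with quantile normalization (0.28, adjusted p = 0.0656), and the cause was not tested. The number of pairs of members that passed the threshold was 0, and 15 with normexp background correction. There the change of miR-18a-5p minus that of miR-20a-5p turned to -0.19, and the added offset of 50 signal units lowers the differences of dim probes. Over all miRNAs, the 86 lower calls became 53 with the percentile over all probes, 49 with no scaling, 150 with labelling spike-ins, 45 with slide column as a block and 53 with the deposited table, the cause of which was not tested. Leaving out 1 array gave 33 to 54 higher and 52 to 105 lower calls, 33 higher without LPS replicate 12 and 52 to 56 lower without LPS replicate 11, LPS replicate 12 or either of the sham replicates 6 and 7. No paired analysis was possible because the groups share only the replicate number 6; slide column, which pairs the arrays by position, was the block tried instead. The filters, the variance model and the column block were not run for the pair tests: the first do not bear on them, and 4 column pairs cannot reach the threshold. Signal limits what is seen: at 16.5 to 116.3 units, the sizes of the changes of miR-17-5p, miR-17-3p and miR-18a-5p depend most on background treatment. The change of miR-19a-3p also fell, from 0.42 to 0.28 with normexp.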
